A study of Mus musculus with 9 samples.

Results

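The fibroblast growth factor (FGF) genes of the mouse mandible were examined as 1 module of 37 genes among the 27179 genes of a deposited count table. The module was defined by gene symbol and holds every Fgf ligand gene with a number in its name and the receptors Fgfr1 to Fgfr4 and Fgfrl1. It also holds the klotho coreceptors Kl and Klb, the inhibitors Spry1 to Spry4, Spred1 and Spred2, and the ETS transcription factors Etv4 and Etv5. No measured value entered that definition, but the module and the gene lists used below were chosen with earlier results of these data known. RNA came from mandibles of male C57BL/6 mice aged 6 months, with 5 wild type (WT) mice and 4 mice labelled FcgRIIB-/-, whose genotype is given as lacking the inhibitory Fc gamma receptor and which serve as a model of lupus. The bones were taken whole with their teeth, so 1 library mixes bone, marrow, tooth, attached muscle and soft tissue, and fewer cells of a type cannot be told apart from less RNA per cell.

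FGF ligands bind receptor tyrosine kinases at the cell surface together with heparan sulfate, and the activated receptor passes the signal through docking proteins to RAS and the MAP kinases. Sprouty proteins, made in response to the signal, and the related Spred proteins damp the same route. Etv4 and Etv5 are transcription factors that the signal induces. Most ligands act locally, the endocrine ligands need a klotho coreceptor, and the FGF homologous factors stay inside the cell, where they bind sodium channels. In the jaw, FGF signals between epithelium and mesenchyme shape the teeth, and receptors in the bone and cartilage lineages control skeletal growth. Fgf23, made by osteocytes, is the hormone by which bone lowers phosphate reabsorption in the kidney.

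Total counts lay between 21453880 and 28991631 per mouse. Fcgr2b, the gene named by the genotype, was not lower in the libraries labelled FcgRIIB-/-, with 24.0 ± 8.28 CPM (SD, n = 5, CPM being the count scaled to a common normalized library size) in WT and 27.8 ± 2.90 CPM (SD, n = 4) in the labelled libraries, so every direction below is between labels. The lineages of a jaw were present by their markers. The summed level of 8 osteoblast genes ran from 27689 to 43672 CPM in WT and from 29941 to 40848 CPM in the labelled libraries. Col1a1 made up most of that sum (mean 31252 CPM in WT and 32590 CPM labelled). Of the 8 genes, 0 passed as higher and 2 as lower. These were Sp7 (log2 fold change -0.25, edgeR adjusted p = 0.0160) and Ibsp (-0.64, edgeR adjusted p = 0.0426), named with their values known. Ameloblast markers, which make enamel matrix, passed as higher for 5 of 7 genes (summed level 9528 to 25812 CPM in WT, 29153 to 50412 CPM labelled), and skeletal muscle markers for 6 of 10 (7285 to 16915 and 17716 to 30601 CPM). Granulocyte and monocyte markers passed as lower for 10 of 10 genes (1228 to 3535 and 199 to 490 CPM), erythroid markers for 8 of 9 (1917 to 2295 and 204 to 548 CPM), periodontal fibroblast markers for 3 of 4 (7665 to 14507 and 3116 to 4482 CPM), and keratinized epithelium markers for 7 of 11, with 1 higher (6244 to 22881 and 4811 to 6189 CPM). No gene of the last 6 lists that was tested was at a count of 0 in any library.

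Of the FGF genes with enough reads, 23 of 27 did not pass the test between the labels. Of the 37 genes, 27 passed the filter on low counts, and of those 1 was higher (Etv4) and 3 were lower (Fgfr2, Spred2 and Fgf14) in the libraries labelled FcgRIIB-/- (edgeR's quasi-likelihood test, Benjamini-Hochberg adjusted p under 0.05). Across the 16329 tested genes, 14.0% were higher and 19.3% were lower, or 33.3% in either direction, against 14.8% of the tested FGF genes. The 27 FGF genes had a median log2 fold change of 0.02, and all tested genes one of 0.0055. The groups did not overlap in 3 of the 27 genes (Etv4, Fgfr2 and Spred2), against 29.6% of all tested genes. The 10 genes that the filter removed are described with their counts and enter none of these shares.

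**Figure D1:**
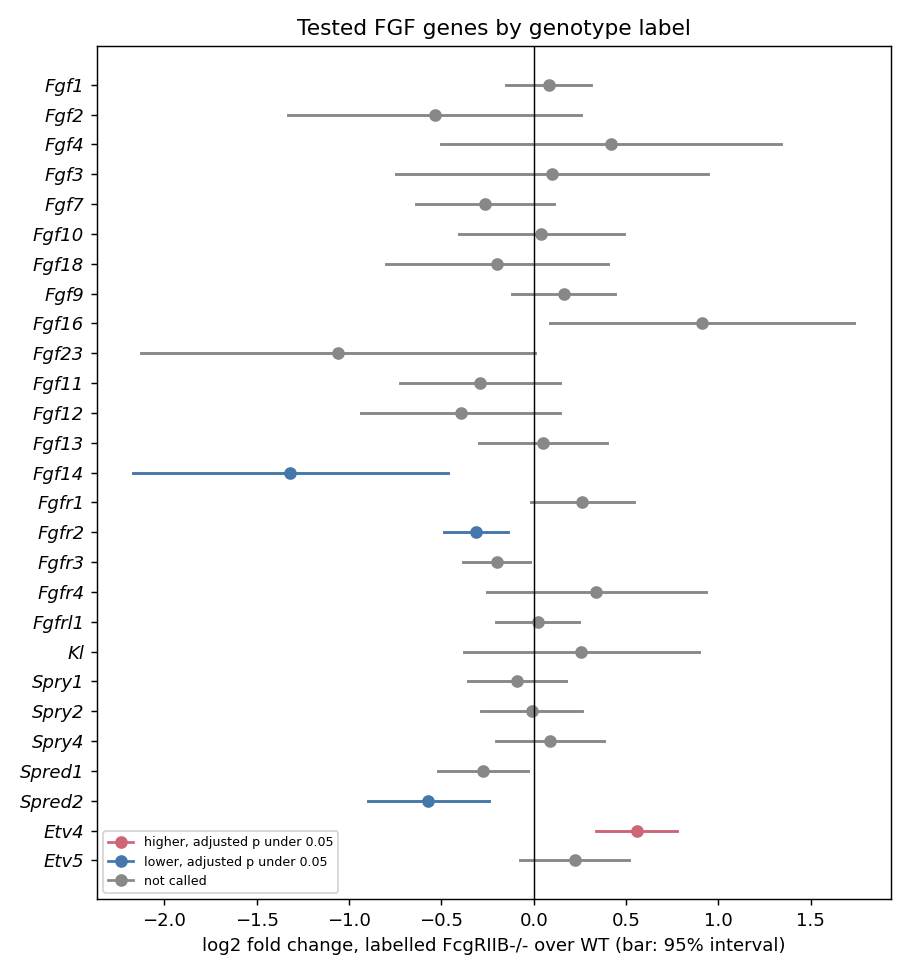
Log2 fold change (x axis, libraries labelled FcgRIIB-/- over WT) of the 27 tested FGF genes (y axis), with points for the estimate and bars for its 95% interval. Etv4 lies to the right of 0 and Fgfr2, Spred2 and Fgf14 lie to the left at an adjusted p under 0.05, while the other 23 genes are grey.

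The receptors carried the highest levels of the module. Per kilobase of exon, Fgfr1 stood at 81.2 ± 10.9 CPM per kb (SD, n = 5) in WT and was first in order, followed by Fgfr3 at 17.8 ± 1.78, Fgfr2 at 14.0 ± 0.949 and Fgfrl1 at 10.3 ± 1.28 CPM per kb. In WT, Fgfr1 lay above every other member in every mouse, with a lowest value of 64.2 CPM per kb against a highest of 19.3 for Fgfr3. The ranges of the next neighbours touched: the lowest Fgfr3 value, 14.8 CPM per kb, was below the highest Fgfr2 value of 15.0, whereas Fgfrl1, at most 11.7, lay below Fgfr2, at least 12.7. Fgfr4 was far lower, at 0.419 ± 0.105 CPM per kb. In the labelled libraries Fgfr1 was again first, at 97.3 ± 13.2 CPM per kb (SD, n = 4), and Fgfr3, at least 14.9, lay above Fgfr2, at most 12.1.

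**Figure D2:**
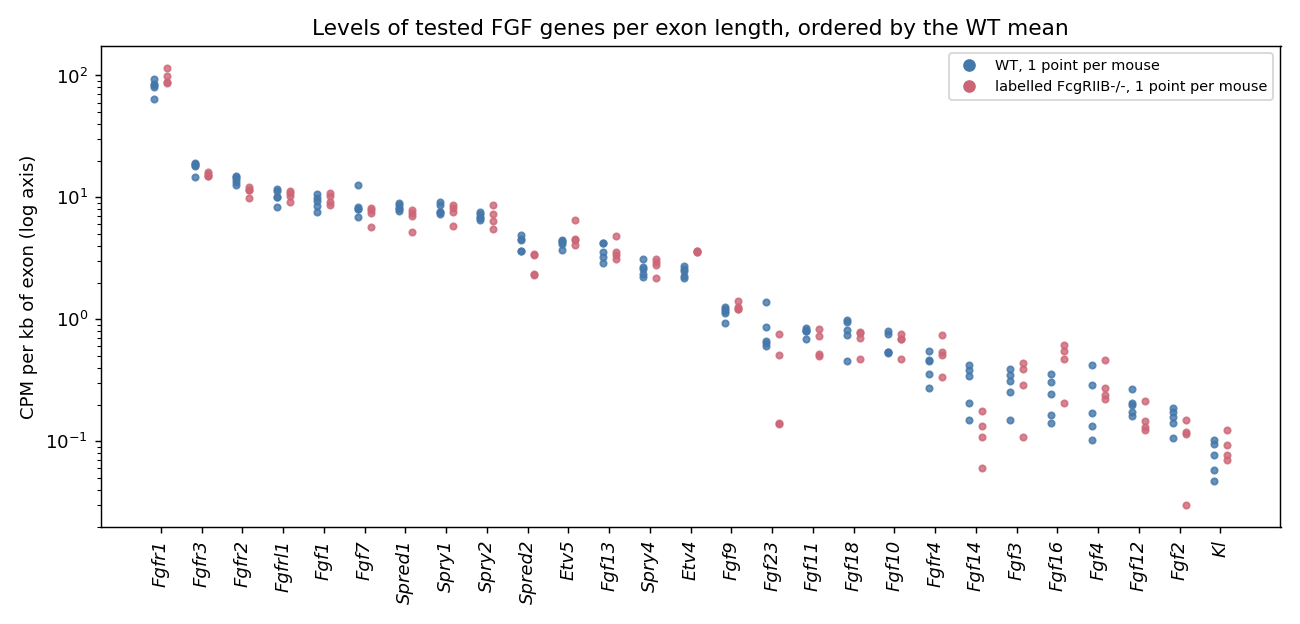
Level of each tested FGF gene in CPM per kilobase of exon (y axis, log scale), with genes on the x axis ordered by the WT mean and 1 point per mouse, blue for WT and red for the libraries labelled FcgRIIB-/-. Fgfr1 stands alone at the top with a WT mean of 81.2, and Kl is last of the tested genes at 0.0763.

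Fgfr2, the receptor used by both epithelial and mesenchymal cells through alternative isoforms, was 139, 131, 147, 152 and 155 CPM in WT replicates 1 to 5 and 120, 125, 119 and 102 CPM in replicates 1 to 4 of the labelled libraries. All 4 labelled libraries lay below all 5 WT libraries, and replicate 4 was the lowest. The means were 145 ± 9.80 (SD, n = 5) and 117 ± 9.84 CPM (SD, n = 4), a log2 fold change of -0.31 (standard error 0.08, 95% interval -0.49 to -0.14, edgeR adjusted p = 0.0122), or 0.805 times the WT level. Fgfr2 lies on the minus strand of chromosome 7 of mm10 (GRCm38) at chr7:130162451-130266808, and counts per gene do not separate its isoforms. Its exons share 314 bases with annotated exons of Ctbp2 on the same strand, where reads cannot be told apart.

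Etv4, an ETS factor, was the gene that rose, and the 250 bases before the annotated start of Fgfr2 and Spred2 (RefSeq, GRCm38.p6), which fell without overlap, are shown with the letters GGAAG, found in sites that ETS proteins prefer, in capitals on either strand (CTTCC is a match on the other strand). Of the 37 genes, 27 had a promoter entry, and Etv4 was not among them.
Fgfr2 promoter, chr7:130266809-130267058, minus strand: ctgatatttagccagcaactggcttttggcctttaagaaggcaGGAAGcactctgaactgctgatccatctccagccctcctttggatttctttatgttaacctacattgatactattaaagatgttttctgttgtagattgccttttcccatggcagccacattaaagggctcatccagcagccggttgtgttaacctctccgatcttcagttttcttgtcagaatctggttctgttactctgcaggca
Spred2 promoter, chr11:19924192-19924441, plus strand: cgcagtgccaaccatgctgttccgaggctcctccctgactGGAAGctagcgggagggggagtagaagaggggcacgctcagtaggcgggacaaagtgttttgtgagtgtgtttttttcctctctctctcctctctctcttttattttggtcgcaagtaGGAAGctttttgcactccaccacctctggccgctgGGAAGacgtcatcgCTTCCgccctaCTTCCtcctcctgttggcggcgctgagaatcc
The Fgfr2 window held 1 match and the Spred2 window 5, of which 3 were forward and 2 reverse. Among 32851 promoter windows of the same length, 64.1% held at least 1 match, the median was 1, and 0.965% held at least 5. The windows and the motif were chosen with the values known, and a match is a run of letters and no measure of binding. Fgf14, also called lower but with overlapping groups, had a promoter entry that is not shown. Whether Etv4 acts on any of these genes was not tested.

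Fgfr1, the main receptor of mesenchymal and bone-forming cells, was 821, 840, 927, 787 and 634 CPM in WT and 875, 971, 857 and 1142 CPM in the labelled libraries. WT replicate 5 was the lowest and labelled replicate 4 the highest, and the ranges overlapped. The log2 fold change was 0.26 (standard error 0.13, 95% interval -0.02 to 0.54, edgeR adjusted p = 0.135). Fgfr3, the receptor that restrains growth plate cartilage, was 129, 131, 134, 138 and 106 CPM in WT and 107, 116, 108 and 112 CPM in the labelled libraries. WT replicate 5 alone reached down to the labelled libraries, and the other 4 WT values lay above all of them. The log2 fold change was -0.20 (standard error 0.08, edgeR adjusted p = 0.0793). Without WT replicate 5 it was -0.24 with an adjusted p of 0.0155, and on library totals alone, with all libraries kept, it was -0.28 with an adjusted p of 0.0423. Fgfr3 exons share 998 bases with G630022F23Rik on the opposite strand, and the strand setting of the counting is not given in the sources used here.

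Fgfr4 was 1.63, 1.61, 1.27, 1.95 and 0.976 CPM in WT and 1.93, 1.80, 1.19 and 2.64 CPM in the labelled libraries, with overlapping ranges (log2 fold change 0.34, standard error 0.27, edgeR adjusted p = 0.354). Fgfrl1, a receptor-like protein without a kinase domain, was 27.9, 32.4, 28.1, 31.4 and 23.3 CPM in WT and 28.6, 30.5, 25.7 and 31.5 CPM in the labelled libraries. Its groups lay on top of each other, and the 95% interval of its log2 fold change, -0.20 to 0.25, bounds the difference (edgeR adjusted p = 0.892). The balance of the receptor transcripts was also read within each library, where depth drops out. The ratio of Fgfr1 to Fgfr2 counts was 5.89, 6.42, 6.30, 5.17 and 4.10 in WT and 7.30, 7.77, 7.20 and 11.2 in the labelled libraries, with no overlap between the groups. The ratio of Fgfr1 to Fgfr3 counts ran from 5.71 to 6.91 in WT and from 7.92 to 10.2 in the labelled libraries. These ratios were chosen with the values known and carry no test.

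**Figure D3:**
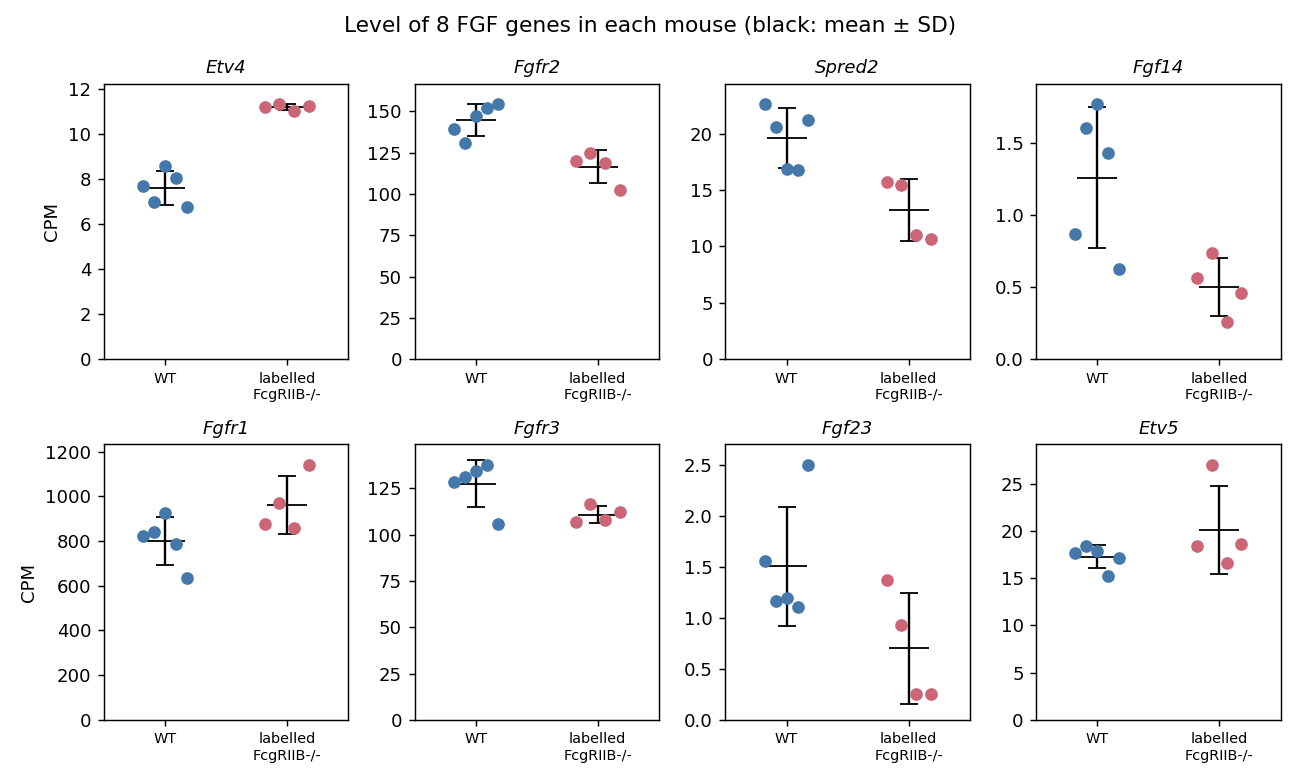
Level in CPM (y axis, from 0) of 8 FGF genes, with 1 point per mouse in replicate order, blue for WT (n = 5) and red for the libraries labelled FcgRIIB-/- (n = 4), and black lines for the mean and SD. Etv4 at 11.0 to 11.3 CPM in the labelled libraries lies above WT, Fgfr2 and Spred2 lie below WT without overlap, and Fgf14, Fgfr1, Fgfr3, Fgf23 and Etv5 overlap.

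Etv4, a PEA3-type ETS factor and a common readout of FGF signalling, was the FGF gene with the smallest adjusted p. It was 7.68, 6.98, 8.56, 8.04 and 6.75 CPM in WT and 11.2, 11.3, 11.0 and 11.3 CPM in the labelled libraries. All labelled libraries lay above all WT libraries and close to each other. The means were 7.60 ± 0.744 (SD, n = 5) and 11.2 ± 0.131 CPM (SD, n = 4), a log2 fold change of 0.56 (standard error 0.10, 95% interval 0.34 to 0.78, edgeR adjusted p = 0.00267), or 1.47 times WT, on 173 to 319 counts per library. Etv4 lies at chr11:101769747-101785310 on the minus strand. Its paralog Etv5 was 17.7, 18.4, 17.9, 15.3 and 17.1 CPM in WT and 18.4, 27.0, 16.6 and 18.6 CPM in the labelled libraries. Labelled replicate 2 stood above the rest and the other values overlapped (log2 fold change 0.22, standard error 0.13, edgeR adjusted p = 0.225), and whether the paralogs differ in their change was not tested.

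Spred2, which blocks the step from RAS to RAF, was 22.6, 20.6, 16.9, 16.8 and 21.2 CPM in WT and 15.7, 15.4, 11.0 and 10.7 CPM in the labelled libraries. All labelled values were below all WT values, with replicates 3 and 4 well below replicates 1 and 2. The means were 19.6 ± 2.65 (SD, n = 5) and 13.2 ± 2.75 CPM (SD, n = 4), a log2 fold change of -0.57 (standard error 0.15, 95% interval -0.90 to -0.24, edgeR adjusted p = 0.0151), or 0.674 times WT. The gene lies at chr11:19924442-20024026 on the plus strand, downstream of the promoter window shown above. Its relative Spred1 ran from 52.6 to 60.8 CPM in WT and from 35.0 to 53.1 CPM in the labelled libraries, where only replicate 1 reached into the WT range (log2 fold change -0.28, standard error 0.11, edgeR adjusted p = 0.0760).

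The Sprouty genes, the classical feedback inhibitors of receptor tyrosine kinases, had log2 fold changes near 0. Spry1 ran from 21.1 to 26.7 CPM in WT and from 16.9 to 25.1 CPM in the labelled libraries (log2 fold change -0.09, 95% interval -0.36 to 0.17). Spry2 ran from 13.5 to 15.8 CPM and from 11.5 to 18.1 CPM (log2 fold change -0.01, 95% interval -0.28 to 0.26), and Spry4 from 10.5 to 14.8 CPM and from 10.3 to 14.8 CPM (log2 fold change 0.09, 95% interval -0.20 to 0.38). The groups overlapped for all 3 genes, and the edgeR adjusted p lay between 0.590 and 0.957. Spry3 had 0 counts in all 9 libraries. A count of 0 allows up to 3 counts, or 0.105 to 0.152 CPM depending on the library, where reads can be assigned to the gene. The annotation used here for exon lengths held no exons for Spry3, and whether reads could be assigned to it was not tested, so its 0 sets no bound. Spry1 exons share 710 bases with Gm42922 on the opposite strand.

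Fgf23 had 43, 29, 31, 30 and 64 counts in WT and 39, 20, 6 and 5 counts in the labelled libraries, or 1.56, 1.16, 1.20, 1.10 and 2.50 CPM against 1.37, 0.924, 0.254 and 0.253 CPM. Labelled replicates 3 and 4 lay well below every WT library, whereas replicate 1 was above 3 WT values, so the groups overlapped. The log2 fold change was -1.06 (standard error 0.48, 95% interval -2.13 to 0.0048, edgeR adjusted p = 0.115). Without labelled replicate 1 it was -1.64 and passed (adjusted p = 0.0358), and without WT replicate 5, labelled replicate 3 or labelled replicate 4 it was -0.78, -0.79 and -0.80 (adjusted p = 0.239, 0.234 and 0.235). Fgf23 lies at chr6:127072902-127082296 on the plus strand, 48.2 kb from its neighbour Fgf6. The osteocyte markers, from the cells that make the hormone, summed to between 810 and 1438 CPM in WT and between 890 and 1211 CPM in the labelled libraries. Phex and Dmp1 had the highest means in that sum (510 and 273 CPM in WT, 600 and 288 CPM labelled). Dmp1 was also on the odontoblast list. Of the 6, Fam20c and Pdpn passed as higher and Sost and Mepe as lower, Pdpn, Sost and Mepe being named with their values known. Sost (log2 fold change -3.56) ran from 10.4 to 352 CPM in WT and from 5.08 to 10.9 CPM labelled. Mepe (-4.46) ran from 7.38 to 245 CPM in WT and reached at most 5.96 CPM labelled. Whether the labels differ in osteocyte content was not tested.

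Kl, the coreceptor for Fgf23 whose main site is the kidney, had the lowest level per kilobase of exon among the tested FGF genes. It was 0.725, 0.441, 0.964, 0.881 and 0.547 CPM in WT and 0.876, 1.16, 0.720 and 0.659 CPM in the labelled libraries, on 11 to 25 counts. The groups overlapped (log2 fold change 0.26, 95% interval -0.38 to 0.89, edgeR adjusted p = 0.520). Klb, the coreceptor for Fgf15 and Fgf21, had 2 counts in WT replicate 1 and 0 in the other 8 libraries. Of its endocrine ligands, Fgf15 had 1 count in labelled replicate 2 and 0 elsewhere, and Fgf21 had 0 to 9 counts in WT and 5 to 9 in the labelled libraries.

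Among the local ligands, Fgf1 and Fgf7 were the most abundant per kilobase of exon, at 9.21 ± 1.14 and 8.78 ± 2.22 CPM per kb (SD, n = 5) in WT, and their order was within the spread between mice. Fgf1, which binds all the receptors, ran from 41.7 to 57.8 CPM in WT and from 47.0 to 59.7 CPM in the labelled libraries (log2 fold change 0.08, 95% interval -0.15 to 0.31). Fgf7, the keratinocyte growth factor made by mesenchyme, ran from 22.5 to 41.0 CPM and from 18.8 to 26.6 CPM (log2 fold change -0.26, 95% interval -0.64 to 0.11), and WT replicate 2 was the highest. Fgf10, its relative that maintains the dental epithelial stem cells of the incisor, ran from 2.45 to 3.67 CPM and from 2.18 to 3.47 CPM (log2 fold change 0.04, 95% interval -0.41 to 0.49). None of the 10 tested secreted ligands passed, so the ligand side gave no called difference except in the intracellular factors.

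Fgf9, a ligand made by epithelium and by skeletal cells, ran from 4.33 to 5.87 CPM in WT and from 5.64 to 6.55 CPM in the labelled libraries (log2 fold change 0.16). Fgf16 of the same subfamily rested on 6 to 16 counts in WT and 8 to 26 in the labelled libraries, with an estimated log2 change of 0.91 (SE 0.37, edgeR adjusted p = 0.0830). Without labelled replicate 3, the lowest of its group, it was 1.16 with an adjusted p of 0.0280. That was the only call of Fgf16 among the 9 fits that each left out 1 mouse, and the edgeR adjusted p in these reached 0.191. Fgf18, a regulator of bone and cartilage growth, had a log2 fold change of -0.20 (95% interval -0.80 to 0.40), Fgf4 of 0.42 (-0.50 to 1.34) and Fgf3 of 0.10 (-0.75 to 0.94), each on at most 35 counts per library. Fgf2 had a log2 fold change of -0.54 (-1.33 to 0.26) on 4 to 32 counts, and its exons share 640 bases with opposite-strand exons and 255 with same-strand exons of Nudt6 and Gm43439. With so few reads, the intervals include a log2 fold change of 1 for Fgf4 and a log2 fold change of -1 for Fgf2.

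The filter also removed 6 local ligands. Fgf5 had 0 to 5 counts in WT and 1 to 12 in the labelled libraries, Fgf6 had 3 to 10 and 0 to 4, and Fgf8, the early patterning ligand of the jaw, had 1 to 5 and 2 to 7. Fgf17 had 1 to 8 counts in WT and 6 to 12 in the labelled libraries. Fgf20 had a single count in labelled replicate 2, and Fgf22 had 17 counts in WT replicate 5 and at most 3 in any other library. With no filter beyond 1 count, none of the removed genes had an adjusted p under 0.05, and the lowest was 0.0572 for Fgf17 (log2 fold change 1.51).

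Of the 4 intracellular FGF homologous factors, Fgf14 was lower. It was 0.869, 1.61, 1.77, 1.43 and 0.625 CPM in WT and 0.561, 0.739, 0.254 and 0.456 CPM in the labelled libraries, on 16 to 46 and 6 to 16 counts. WT replicate 5 fell below labelled replicate 2, so the groups overlapped, and WT replicates 2 to 4 were the highest. The means were 1.26 ± 0.492 (SD, n = 5) and 0.503 ± 0.203 CPM (SD, n = 4), a log2 fold change of -1.32 (standard error 0.39, 95% interval -2.17 to -0.47, edgeR adjusted p = 0.0245). The call was lost without WT replicate 3 (adjusted p = 0.0511), WT replicate 4 (0.0504), labelled replicate 3 (0.0631) or labelled replicate 4 (0.0580). Fgf14 spans chr14:123974441-124677686 on the minus strand. Fgf13, the most abundant of the factors at 11.6 to 17.0 CPM in WT and 12.6 to 19.6 CPM in the labelled libraries, had a log2 fold change of 0.05 (95% interval -0.29 to 0.39). Fgf11 had a log2 fold change of -0.29 (-0.72 to 0.14) and Fgf12 of -0.40 (-0.94 to 0.14).

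The libraries did not contribute evenly to the low values. Among the 4 labelled libraries, replicate 3 was the lowest for 13 of the 27 tested FGF genes and replicate 4 for 12, and among the WT libraries replicate 5 was the lowest for 11. The summed ameloblast, skeletal muscle, granulocyte and monocyte, erythroid, periodontal fibroblast and keratinized epithelium markers separated the labels in the same libraries as Etv4, Fgfr2 and Spred2. The adipocyte sum did so too (49.3 to 88.9 CPM in WT, 114 to 166 CPM labelled). Fabp4 made up most of it, whereas Adipoq was lower. The osteoblast, osteocyte, odontoblast, cartilage, endothelium and Schwann cell sums overlapped. Single genes within an overlapping sum could still differ, as Sp7, Ibsp, Sost and Mepe did. The part of these cell types in the results was not tested. Granulocyte and monocyte markers, at 1228 to 3535 CPM in WT and 199 to 490 CPM in the labelled libraries, separated the groups as fully as Etv4, Fgfr2 and Spred2 did. So did ameloblast markers, at 9528 to 25812 and 29153 to 50412 CPM.

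The wider pathway was read from 65 further genes, all of them tested, of which 6 were higher and 14 lower, or 30.8% in all against 33.3% of all tested genes. On library totals alone, without TMM, the split was 5 higher and 21 lower, a setting in which 8.02% of all tested genes were higher and 23.2% lower. The 20 genes of the signal relay gave 3 higher and 3 lower (30% called), with a median log2 fold change of -0.05. Frs2, the docking protein that the receptors phosphorylate, ran from 61.5 to 65.1 CPM in WT and from 45.7 to 50.8 CPM in the labelled libraries (log2 fold change -0.40, edgeR adjusted p = 7.30e-04). Gab1, a further docking protein (-0.36), and the adaptor Crkl (-0.55) were also lower, whereas the GTPase Hras was higher, from 68.2 to 79.8 CPM in WT to 86.6 to 108 CPM labelled (0.44, edgeR adjusted p = 0.00229). These 4 genes, picked for the smallest adjusted p of the list, did not overlap between the groups. Of the 20 relay genes 6 did not overlap, and of all tested genes 29.6% did not.

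The list of other feedback and target genes gave 0 higher and 3 lower of 12, or 25% in either direction against 33.3% of all tested genes, with a median log2 fold change of 0.10. The ubiquitin ligase Cbl, which removes activated receptors from the surface, fell from 25.1 ± 3.01 CPM (SD, n = 5) to 10.1 ± 2.37 CPM (SD, n = 4), a log2 fold change of -1.32 (edgeR adjusted p = 4.95e-04). The MAP kinase phosphatases Dusp4 (-1.28) and Dusp5 (-0.77) were lower as well. Dusp6, the phosphatase most often used as a readout of FGF signalling and named here with its value known, had 47.0 ± 3.04 CPM (SD, n = 5) and 51.4 ± 4.44 CPM (SD, n = 4), with overlapping groups (0.13, edgeR adjusted p = 0.213). The Dusp5 call was lost without WT replicate 4 (adjusted p = 0.0636), WT replicate 5 (0.0553) or labelled replicate 1 (0.0528). Granulocyte and monocyte markers, at 199 to 490 CPM labelled against 1228 to 3535 CPM in WT, moved in the same direction as Cbl, Dusp4 and Dusp5, and their part was not tested.

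The 25 extracellular partners, mostly heparan sulfate proteoglycans and the enzymes that build and edit their chains, gave 2 higher (8% of the list, against 14.0% of all tested genes) and 8 lower (32%, against 19.3%), with a median log2 fold change of -0.16. Ndst1, which sulfates the growing chain, ran from 106 to 117 CPM in WT and from 45.1 to 64.0 CPM in the labelled libraries (log2 fold change -0.98, edgeR adjusted p = 2.30e-04). The glypican Gpc6 (-0.72) and the extracellular sulfatase Sulf2 (-0.55) were lower too, and Ext1, a polymerase of the chain, was higher, from 111 to 118 CPM in WT to 130 to 156 CPM labelled (0.31, edgeR adjusted p = 0.00694). Periodontal fibroblast markers, at 7665 to 14507 CPM in WT and 3116 to 4482 CPM labelled, and erythroid markers, at 1917 to 2295 and 204 to 548 CPM, were lower in the same libraries, and their part was not tested. The 8 genes that control Fgf23 gave 1 higher (12.5% of the list, against 14.0% of all tested genes) and 0 lower (0%, against 19.3%). The higher gene was Fam20c, the kinase that phosphorylates secreted proteins (log2 fold change 0.37, edgeR adjusted p = 0.00740). It ran from 85.6 to 104 CPM in WT and from 112 to 135 CPM in the labelled libraries. Without WT replicate 4 the number of lower genes over the 65 was 9, a setting in which 15.6% of all tested genes were lower.

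**Figure D4:**
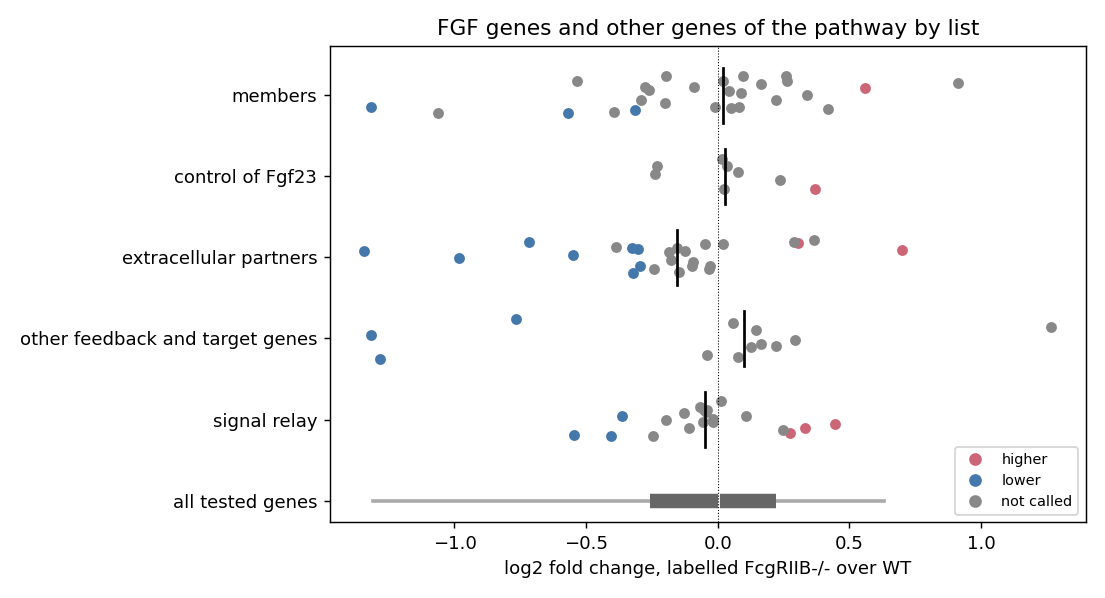
Log2 fold change (x axis, libraries labelled FcgRIIB-/- over WT) of each tested gene by list (y axis), red for higher and blue for lower at an adjusted p under 0.05 and grey for not called, with a black line at each list's median; vertical scatter within a list has no meaning. For all tested genes the thick bar spans the middle 50% and the thin bar the middle 90%, and the medians of the FGF genes (0.02) and of the extracellular partners (-0.16) can be read against it.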

How the data were processed

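Poly(A) RNA of each mandible (Trizol, 200 ng of total RNA) was made into stranded NEBNext Ultra Directional libraries. Reads were trimmed by the authors (Trim Galore), aligned to mm10 (HISAT 02.1.0, from the submitters' processing notes) and counted per gene (featureCounts), and the values deposited are raw counts for 27179 genes, with no normalization. The annotation, strand setting and treatment of reads matching several genes are not given in the sources used here. Samples were grouped from their labels, each replicate being 1 mouse, and 1 column of per-sample values matched no sample and was not used. Rows without a gene symbol (1030 of them) held 0.0971% of the counts.

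Genes were filtered with filterByExpr (minimum count 10), which kept 16329, and the labels were compared in edgeR 4.0.16 (R 4.3.3) with TMM and the quasi-likelihood test, Benjamini-Hochberg adjusted over all tested genes at 0.05. Standard errors were obtained by dividing the size of the log2 fold change by the root of F, and log2 CPM used a prior count of 2. No pair of libraries of 1 group agreed within sampling noise. The fit was tested on simulated counts for this comparison (16329 genes, of which 200 carried a log2 change of 1), where edgeR recovered 76% and DESeq2 1.42.0 85%, with 6.17% and 20.6% of their calls on unchanged genes. Intervals and floors (3 counts) for single libraries cover counting error only, and low genes rest on few reads. Exon lengths came from GENCODE and positions and promoters from RefSeq for GRCm38.

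Every FGF gene that passed the filter is named, receptors, Fgf23, klothos and called genes in every sample, and removed genes by counts. Of each pathway list, up to 4 genes with the smallest adjusted p under 0.05 are named. The FGF genes and lists were chosen with earlier results of these data known. Alternatives were RLE size factors, library totals alone, other filters, DESeq2, a replicate block and leaving out each mouse.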

Additional observations from a re-analysis of the deposited data

Results flagged for a closer look

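Among 54 groups examined (27 FGF genes by 2 labels), 2 held a sample whose gap to its nearest neighbour was large for the range of its group. Gaps and ranges were taken in log2 CPM, and chance alone gives about 1 in 20. Fgf11 in WT replicate 2 was the lowest at 2.09 CPM, with the next value at 2.46 CPM and a gap of 0.786 of the range. Fgfr3 in WT replicate 5 was the lowest at 106 CPM, with the next value at 129 CPM and a gap of 0.741 of the range, and without that library Fgfr3 passed as lower in the libraries labelled FcgRIIB-/- (edgeR adjusted p = 0.0155). That was the only call of Fgfr3 among the 9 fits that each left out 1 mouse.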

How the results depend on the processing

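Etv4 and Spred2 kept their calls in all 15 alternatives run. Fgfr2 kept its call in 14 of 15 and Fgf14 in 10 of the 14 where it was tested, since a filter at a mean of 1 CPM removed it. The number of FGF genes higher was 1, and 1 to 2 when single mice were left out (2 without labelled replicate 3, where Fgf16 joined Etv4), and the number lower ran from 2 to 4 over all alternatives. Of all tested genes, 14.2% to 23.2% were lower over the same alternatives, and 11.4% were higher without labelled replicate 3. Pathway genes lower ran from 9 to 15 when single mice were left out, with 9 without WT replicate 4. The share of all tested genes that were lower ran from 15.6% (without WT replicate 4) to 17% in those fits. Over all genes, library totals alone called 1309 higher and 3781 lower, against 2289 and 3144, and Fgfr3 then passed as lower (adjusted p = 0.0423).

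The replicate numbers are only numbers: same-numbered mice had correlations of their deviations of 0.0969, 0.0276, -0.114 and -0.0739, and none correlated best with its own number. With the replicate block, WT replicate 5 had no partner, 1 FGF gene was higher and 3 were lower, Fgfr2 had an adjusted p of 0.0590, Fgfr3 passed (0.0260), Dusp5 had 0.0839, and 1594 genes were higher and 2410 lower in all.

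Log2 fold changes near 0 changed sign without passing the test. Under the block Fgf3 was -0.14, Fgf10 -0.0032 and Fgfrl1 -0.045. On library totals alone Fgf10 was -0.031, Fgf13 -0.026 and Fgfrl1 -0.060. Spry2 was 0.0045 with RLE size factors, 0.0054 with the filter at a mean of 1 CPM and 0.0049 in DESeq2. Leaving out single mice gave -0.10 to 0.36 for Fgf3, -0.035 to 0.17 for Fgf10, -0.10 to 0.13 for Fgf13, -0.023 to 0.086 for Fgfrl1, -0.16 to 0.018 for Spry1 and -0.13 to 0.088 for Spry2. Genes under about 1 CPM rest on few counts, which limits how small a difference can be shown for most ligands.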
